A study of Mus musculus with 1814 samples.

Results

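Dark zone B cells of mouse germinal centers sampled at 60 h were compared with those sampled at 46 h. The members were the Dec+ wells that the labels place in the dark zone at these times on plates 3 to 6 (experiment 3) and A to D (experiment 4), 15.1% of the 1814 deposited wells. Each well held 1 index-sorted cell whose RNA was sequenced by SmartSeq2, a method that reads whole transcripts and carries no molecular identifiers. They were 73 cells at 46 h and 69 at 60 h in experiment 3, and 54 and 78 cells in experiment 4. All 4 groups carried the label Dec positive, and the labels gave their genotype as NA. They named no animal, age, strain or agent from which the hours were counted. In studies of this type an antibody against the receptor DEC-205, loaded with antigen, makes germinal center B cells present that antigen to T cells and so starts positive selection at a known moment. The experiment was the replicate, so that n = 2, and p-values measure only the spread between these sums of cells.

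Within the germinal center, B cells are selected by T follicular helper cells in the light zone, and proliferate and mutate their immunoglobulin genes in the dark zone. T cell help induces MYC and a program of cell growth, and cells that received more help divide more times in the dark zone before they return. Cyclin D3, the product of Ccnd3, is the D-type cyclin that germinal center B cells depend on for these divisions. The comparison asked how the dark zone transcriptome differed between an earlier and a later time after the start of this process.

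The data were deep for single cells. The reads summed per group came to 16193658 (46 h) and 14961528 (60 h) in experiment 3, and to 15772196 and 17196541 in experiment 4. Levels below are CPM, the counts divided by these sums on a common scale, adjusted by TMM; the marker sums of this paragraph are CPM without that adjustment. All 13 germinal center B cell markers searched had reads in these cells, and together they reached 8284 to 10147 CPM in the 4 groups. The T cell marker list had 21 of 22 genes with reads, with most of the reads in Cd2 and Lck, and its sum was 273.1 and 187.2 CPM at 46 h and 213.6 and 283.02 at 60 h (experiments 3 and 4). The defining markers Cd3e and Trbc2 were at 0 at both 46 h groups, and at 60 h they stood at 0.802 and 1.27 CPM in experiment 3 and at 3.49 and 16.4 in experiment 4. Reads of 5 or more T cell markers were found in 0 of 73 and 0 of 54 wells at 46 h, and in 4 of 69 and 10 of 78 wells at 60 h. A count of 0 allows a share of up to 4.11% and 5.56% there (3 wells of the total, counting error only). The myeloid list had reads for 8 of 20 genes (438 to 753 CPM, the lowest value in experiment 4 at 46 h), and the NK cell list for 3 of 11 (0 to 8.49).

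The 46 h group of experiment 4 stood apart from the other 3. Its cells had a median of 2094.5 genes detected, against 3054 at 60 h in the same experiment and 3012 and 2796 (46 h and 60 h) in experiment 3. Mitochondrial reads had a median of 5.13% in that group and 3.77% at 60 h, and 1.43% and 1.45% in experiment 3. Ighm, the constant gene of IgM, was the heavy-chain gene with the most reads in 40 of its 54 cells (74.1%, exact 95% interval 60.3 to 85.04%). The same held for 2 of 78 cells at 60 h, and for 5 of 73 and 0 of 69 cells in experiment 3, where Ighg1 led in 68 and 63 cells. The interferon response list summed to 4633 CPM in that group and to 2315 to 2752 in the other 3. The authors marked 16 of its 54 cells for both zones, and 7 of 78 at 60 h, against 8 of 73 and 12 of 69 in experiment 3. Within every plate the cells of the 2 times lay in separate rows, so that row and time cannot be told apart. Levels are therefore given below for each experiment, and the part that these differences play in it was not tested.

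**Figure D1:**
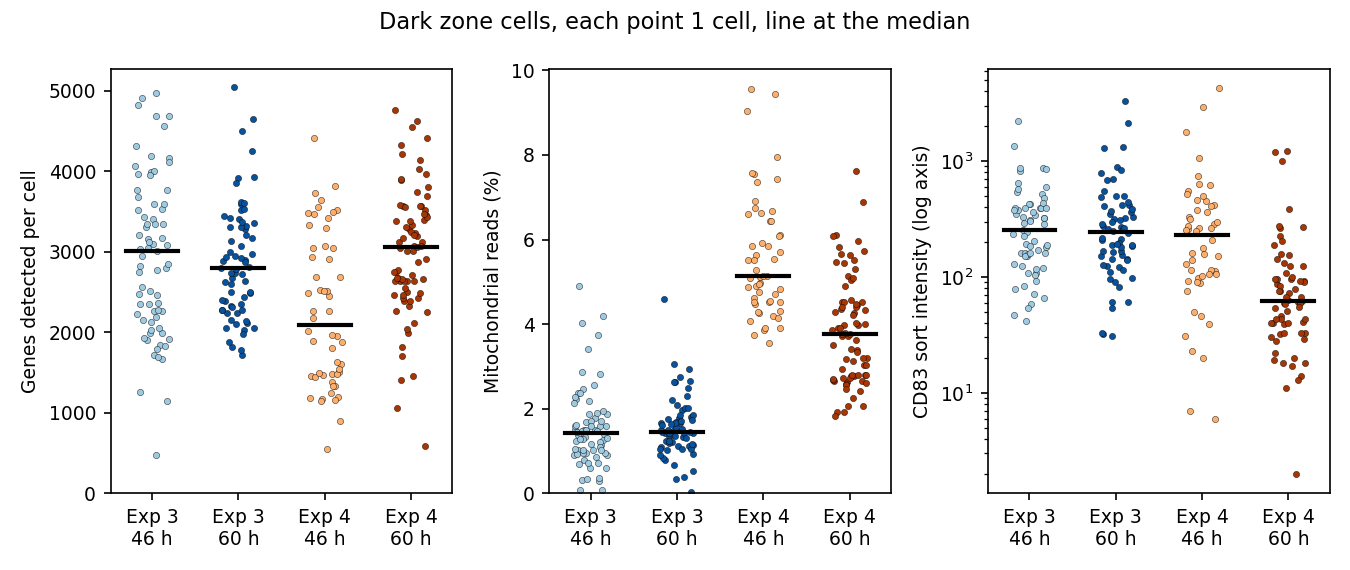
Genes detected per cell, percent of reads in mitochondrial genes and CD83 sort intensity (arbitrary units, log axis) of the dark zone cells, by experiment and time; each point is 1 cell and the line marks the median. The 46 h cells of experiment 4 have the lowest median of genes detected (2094.5) and the highest of mitochondrial reads (5.13%), and the 60 h cells of experiment 4 the lowest CD83 median (62).

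The genes for protein synthesis and cell growth were lower at 60 h than at 46 h in both experiments, and genes of the light zone and of NF-kB signaling were higher, but no single gene passed the test. By edgeR's quasi-likelihood test with Benjamini-Hochberg adjustment, 0 of 11661 genes (0%) had an adjusted p under 0.05. At an unadjusted p under 0.05, 0.96% of the genes were higher and 0.686% lower at 60 h. Together these were 1.65% of the genes, below the rate that a threshold of 0.05 gives on average without any difference. DESeq2 on the same sums called 81 genes higher (0.695%) and 53 lower (0.455%). The higher calls included 6 of the 21 T cell markers tested. Of the 46 h and 60 h wells, those with the number of T cell markers counted above were all at 60 h. Each of these wells also had reads of at least 8 germinal center B cell markers. The part that these wells play in the higher calls was not tested. Of all genes tested, 25.3% were higher at 60 h in both experiments and 21.3% lower in both, and for 15.6% and 11.5% both 60 h levels lay above or below both 46 h levels.

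The cytosolic ribosomal proteins, which build the small and the large subunit of the ribosome, had the most uniform pattern of the lists examined. Their summed level was 150300 CPM at 46 h and 123493 CPM at 60 h in experiment 3, and 112143 and 64917 CPM in experiment 4. The 60 h sum was thus the lower in each experiment, while the 60 h sum of experiment 3 lay above the 46 h sum of experiment 4. Of the 81 genes, 79 were lower at 60 h in both experiments and 0 higher in both, against the 21.3% and 25.3% of all genes given above. For 23 of the 81 both 60 h levels lay below both 46 h levels, against 11.5% of all genes. An unadjusted p under 0.05 was found for 15, all of them lower, against 0.686% of all genes. The median log2 ratio of 60 h over 46 h was -0.59, with -0.29 in experiment 3 and -0.88 in experiment 4, where the median over all genes tested was 0.01. It was below 0 in 7 of 7 plates, from -0.01 in plate 6 to -1.29 in plate C. It was also below 0 within each of the authors' cell cycle phases: -0.30 (G1), -0.10 (S) and -0.50 (G2M) in experiment 3, and -0.27, -1.15 and -0.95 in experiment 4. Without cells of under 2000 genes detected the median was -0.77, a setting chosen after seeing the data, which left 28 of the 54 cells of the 46 h group of experiment 4. At earlier times the dark zone sums of this list were 110216 (12 h) and 127678 (30 h) CPM in experiment 3 and 57480 and 67919 in experiment 4, so that 46 h held the highest dark zone value of each experiment.

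Single ribosomal genes followed the sums. Rpl10a, of the large subunit, had 2531 and 1660 CPM at 46 h (experiments 3 and 4) and 1965 and 869 at 60 h, a log2 ratio of -0.64 ± 0.23 (SE, edgeR, unadjusted p = 0.0156, adjusted p = 1). Rps2, of the small subunit, had 3965 and 3538 CPM at 46 h and 2967 and 1544 at 60 h (-0.79 ± 0.30, adjusted p = 1). Rpl7 had 4216 and 3232 CPM and then 3183 and 1914. The times did not overlap for Rps2 and Rpl7, while for Rpl10a the 60 h level of experiment 3 lay above the 46 h level of experiment 4, and all 3 genes were lower in 7 of 7 plates. Among translation factors 16 of 36 were lower in both experiments and 5 higher (median -0.24, with -0.14 and -0.31). Of all genes, 21.3% were lower in both and 25.3% higher. Eif5a, which helps ribosomes to elongate, had 1199 and 1799 CPM at 46 h and 884 and 934 at 60 h, and Eef1g, a subunit of the elongation factor that reloads eEF1A, had 1530 and 1280 CPM and then 1077 and 738. Both genes were lower at 60 h with no overlap, at unadjusted p of 0.0404 and 0.0483 (edgeR, adjusted p = 1).

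Genes of MYC-dependent growth and ribosome biogenesis were lower at 60 h in the same way. Their summed level was 7380 and 8354 CPM at 46 h and 5485 and 5247 at 60 h, without overlap. Of 45 genes, 23 were lower in both experiments and 5 higher, against 21.3% and 25.3% of all genes. Without overlap 19 lay lower, against 11.5% of all genes. The median log2 ratio was -0.30 (-0.34 and -0.38 by experiment) and was below 0 in 7 of 7 plates. Within phases it was below 0 in 5 of 6 cases and stood at 0.38 in G1 cells of experiment 4, where the median of all genes was 0.26. Npm1, nucleophosmin, which works in ribosome assembly in the nucleolus, had 2532 and 3287 CPM at 46 h and 1653 and 1332 at 60 h. Its log2 ratio was -0.91 ± 0.29 (SE, edgeR, unadjusted p = 0.00697, adjusted p = 1), and it was lower in 7 of 7 plates. Nme1 and Ruvbl2 were not members of the growth list. They were named for their small p-values in these data, so that they add no support to the list. Nme1, a nucleoside diphosphate kinase and known MYC target, had 647 and 540 CPM at 46 h and 380 and 196.9 at 60 h (-1.08 ± 0.36, lower in 7 of 7 plates). Ruvbl2, an ATPase of chromatin remodelling and snoRNP assembly complexes, had 232.9 and 223.8 CPM at 46 h and 130 and 117.1 at 60 h. Its ratio of -0.89 ± 0.28 had an adjusted p of 1 by edgeR and of 0.0232 by DESeq2. Myc itself had low levels, 34.2 and 37.1 CPM at 46 h and 21.01 and 15.01 at 60 h. The 60 h values were the lower in both experiments, but the ratio of -0.99 ± 0.65 went with 3 plates higher and 4 lower (unadjusted p = 0.151, adjusted p = 1, edgeR).

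The promoters of 2 genes of this list are shown, Apex1 for the E-box, the site that MYC binds, and Nhp2 for the ETS core, the site of ETS factors. Apex1, a DNA repair endonuclease (122.3 and 96.5 CPM at 46 h, 77.8 and 46.7 at 60 h, lower in 4 of 7 plates), carries 3 E-boxes in the 300 bases from 250 before to 50 after its start, at chr14:50924699-50924998 on the plus strand. Nhp2, a subunit of H/ACA snoRNPs (296.2 and 235.6 CPM, then 217.1 and 105.6, lower in 6 of 7 plates), carries 1 ETS core, at chr11:51619523-51619822 on the plus strand. Both sequences come from RefSeq on GRCm38.p6 (mm10), 5′ to 3′, with the matched letters in capitals.
Apex1: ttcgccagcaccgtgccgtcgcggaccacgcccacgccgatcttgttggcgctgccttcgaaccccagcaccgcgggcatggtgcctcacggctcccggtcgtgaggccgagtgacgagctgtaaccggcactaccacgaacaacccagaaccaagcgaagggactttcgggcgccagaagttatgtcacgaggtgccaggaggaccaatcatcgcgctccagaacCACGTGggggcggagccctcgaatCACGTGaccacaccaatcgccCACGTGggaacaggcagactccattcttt
Nhp2: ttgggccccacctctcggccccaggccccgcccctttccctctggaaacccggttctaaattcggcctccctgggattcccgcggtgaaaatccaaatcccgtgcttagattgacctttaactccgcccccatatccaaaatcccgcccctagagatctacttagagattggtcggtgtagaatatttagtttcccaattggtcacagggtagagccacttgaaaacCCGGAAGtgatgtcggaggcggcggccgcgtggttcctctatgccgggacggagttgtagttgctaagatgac
The E-box searched was CACGTG, which reads the same on both strands, and the ETS core was CCGGAAG on either strand. Of the 39 growth genes matched by symbol, 10 (25.6%) held the E-box, against 8.09% of all 27025 genes with a promoter in the table and 12.1% of the 8954 among the genes tested. The ETS core was held by 12 of the 39 (30.8%). The ribosomal proteins held the E-box in 6 of 60 (10%) and the ETS core in 25 of 60 (41.7%), where 9.93% of all genes and 21.6% of those tested held the core. A match describes these letters only.

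Most nuclear genes of the respiratory chain and most proteasome subunits were lower at 60 h in both experiments. Most glycolysis genes and mitochondrially encoded transcripts were not lower in both. In the nuclear genes of the respiratory chain and ATP synthase 60 of 76 were lower in both experiments and 1 higher, with a median of -0.49 (-0.18 and -0.74) and a value below 0 in 7 of 7 plates. Ndufs3, of complex I, had 293.97 and 208.7 CPM at 46 h and 168.95 and 110 at 60 h (-0.86 ± 0.32, edgeR adjusted p = 1), and Cyc1, cytochrome c1 of complex III, had 369 and 340 CPM and then 264.9 and 171.8. Both genes were lower in 7 of 7 plates with no overlap between the times. The transcripts encoded by the mitochondrial genome did not share this pattern, as 4 of 15 were lower in both experiments and 2 higher, with medians of 0.05 in experiment 3 and -0.71 in experiment 4. Among glycolysis genes 5 of 17 (29.4%) were lower in both and 3 higher. Of all genes tested 21.3% were lower in both, and 26.8% of those at 20 CPM or more. The median of the glycolysis list was -0.20, with -0.09 and -0.05 in the experiments, and was below 0 in 6 of 7 plates. Its summed level was 10224 and 9726 CPM at 46 h and 9734 and 7545 at 60 h. Aldoa, an aldolase, had 694 and 777 CPM at 46 h and 735 and 495 at 60 h, with opposite signs in the experiments. Ldha, lactate dehydrogenase A, had 1357 and 1396 CPM at 46 h and 994 and 807 at 60 h. Mif, a cytokine placed in the glycolysis list, had 379 and 393 CPM and then 241.1 and 91.3 (-1.33 ± 0.44, lower in 6 of 7 plates). Ldha and Mif had no overlap between the times.

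Of the proteasome subunits 25 of 37 were lower in both experiments and 0 higher (median -0.38, with -0.14 and -0.69), and 19 lay lower without overlap. Of all genes tested, 21.3% were lower in both, 25.3% higher in both, and 11.5% lower without overlap. Of those at 20 CPM or more, 26.8% were lower in both. Psmb4 had 358 and 346 CPM at 46 h and 208.2 and 172.7 at 60 h, and Psmb7 had 192.9 and 217.2 CPM and then 127.6 and 87.4. The plates put the list below 0 in 5 of 7, and both genes were lower in 7 of 7. Chaperonins and cytosolic chaperones had 14 of 21 genes lower in both experiments and 1 higher (median -0.29, with -0.15 and -0.45), with Hsp90ab1 at 3172 and 3142 CPM at 46 h and at 2343 and 1763 at 60 h. Variant histones and chromatin HMG proteins had 9 of 13 genes lower in both and 0 higher (median -0.40, with -0.16 and -0.56, below 0 in 7 of 7 plates). H2afz, the histone variant H2A.Z, had 3453 and 6285 CPM at 46 h and 2772 and 3134 at 60 h, and Hmgb1 had 1552 and 2253 and then 1219 and 1336. In the serine, one-carbon and amino acid list 9 of 18 were lower in both and 2 higher (median -0.20, with -0.17 and -0.22), with Phgdh, the first enzyme of serine synthesis, at 431 and 551 CPM at 46 h and at 327.6 and 233.97 at 60 h. In the fit without experiment 4 the medians were -0.17 for the nuclear respiratory genes, -0.14 for the proteasome, -0.15 for the chaperones and -0.15 for the variant histones. Within S and G2M cells the medians of these lists were below 0 in both experiments, but not throughout G1. In G1 cells of experiment 3 they were 0.04 for the chaperones and 0.06 for the proteasome. In G1 cells of experiment 4 the chaperones had 0.30, the variant histones 0.37 and the nuclear respiratory genes 0.25. The median of all genes was 0.26 there.

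**Figure D2:**
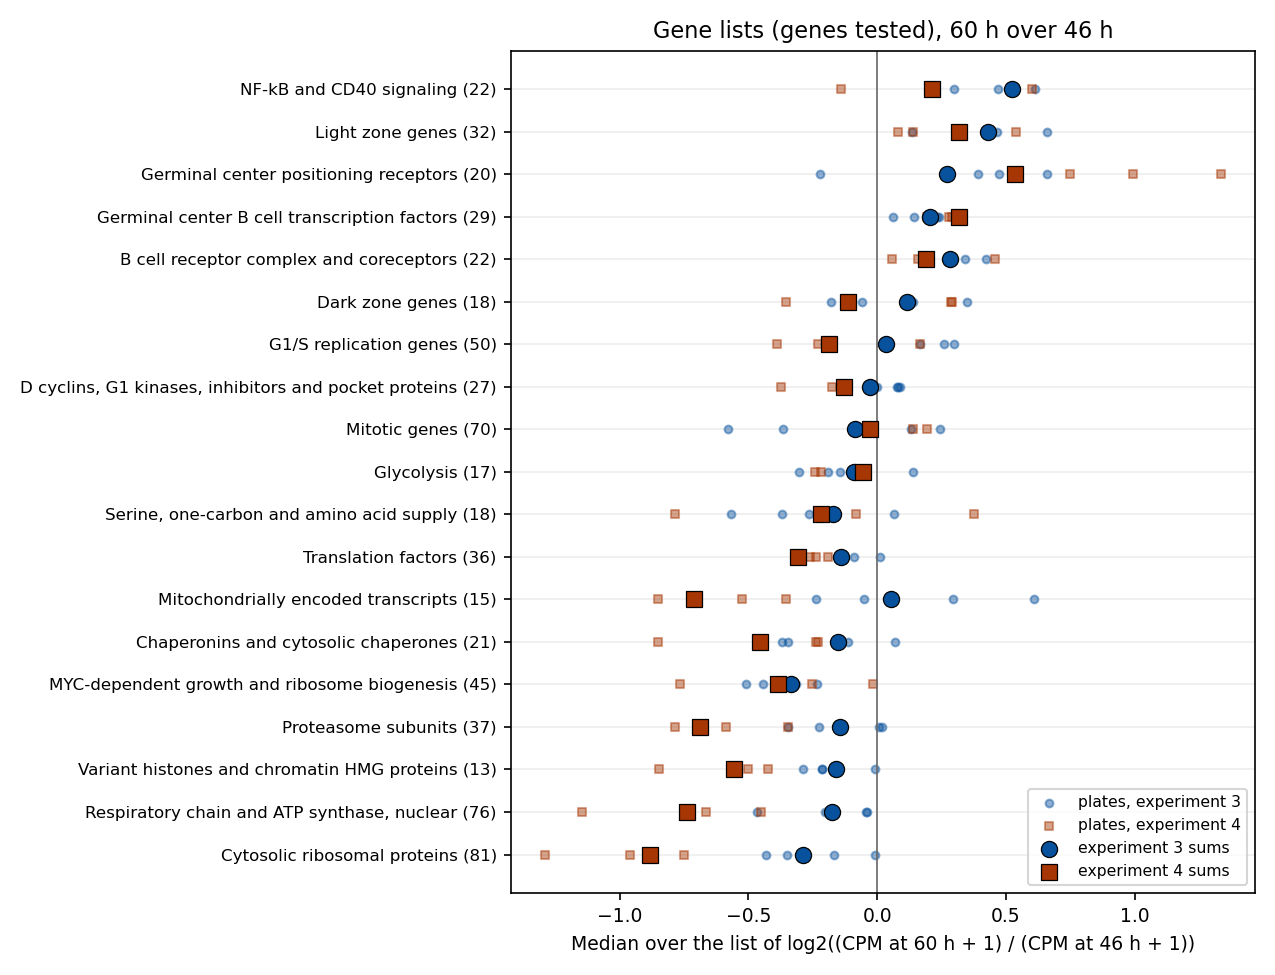
Median over the genes of each list of the log2 ratio of 60 h over 46 h (CPM + 1), with the number of genes tested in brackets; large symbols are the sums of experiments 3 and 4, small symbols the plates with at least 5 cells at each time. The ribosomal proteins have medians of -0.29 and -0.88 by experiment, and the light zone genes lie above 0 in all 7 plates.

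Light zone genes, which T cell contact and B cell receptor signals induce, were higher at 60 h in these cells sorted as dark zone. Of 32 genes, 17 were higher in both experiments and 2 lower, against 25.3% and 21.3% of all genes. Without overlap 16 lay higher, against 15.6% of all genes. The median log2 ratio was 0.35 (0.43 in experiment 3 and 0.32 in experiment 4). It was above 0 in 7 of 7 plates and in each phase of each experiment, from 0.09 to 0.55. In plate A (0.14) and in G1 cells of experiment 4 (0.18) it lay below the median over all genes, which was 0.16 and 0.26 there. The summed level was 2666 and 2781 CPM at 46 h and 3801 and 2992 at 60 h. At 12 h, the dark zone sums of this list were 4573 and 5574 CPM, above both later times in each experiment. With the cells marked for both zones by the authors left out, the median was 0.27, and without cells of under 2000 genes it was 0.72.

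Cd86, a costimulatory ligand of CD28 on T cells, had 83.03 and 22.6 CPM at 46 h and 145.03 and 142.7 at 60 h. Both 60 h values lay above both 46 h values, the log2 ratio was 1.65 ± 0.56 (SE, edgeR, unadjusted p = 0.0102, adjusted p = 1), and 7 of 7 plates were higher. Cd86 reads were present in 28 of 73 and 4 of 54 cells at 46 h and in 37 of 69 and 27 of 78 cells at 60 h. Cd40, the receptor of the T cell signal CD40L, had 40.3 and 44.4 CPM at 46 h and 102.5 and 60.8 at 60 h (0.88 ± 0.40). Icam1, an adhesion ligand, had 40.7 and 56.1 CPM and then 79.5 and 108.2, and Il4i1, an amino acid oxidase induced by IL-4, had 40.6 and 20.1 CPM and then 108.9 and 55.6. All 3 were higher at 60 h without overlap, at adjusted p = 1 by edgeR. Cd83 RNA, the transcript of the light zone sort marker, had 422 and 423 CPM at 46 h and 703 and 488 at 60 h (0.46 ± 0.57, unadjusted p = 0.439, adjusted p = 1, edgeR).

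Genes of NF-kB and CD40 signaling were higher in both experiments for 13 of 22 and lower for 1 (median 0.40, with 0.52 and 0.21), and 11 lay higher without overlap. Of all genes, 25.3% were higher in both, 21.3% lower in both, and 15.6% higher without overlap. The median of the NF-kB list was above 0 in 6 of 7 plates and stood at -0.14 in plate A. In G1 cells of experiment 4 it was 0.14, below the 0.26 of all genes. Malt1, the protease that links antigen receptors to NF-kB, had 47.4 and 40.5 CPM at 46 h and 73.7 and 126.5 at 60 h. The B cell receptor complex and its coreceptors were higher in both for 10 of 22 and lower for 1 (median 0.17, with 0.28 and 0.19). This list was above 0 in 7 of 7 plates, but below the median over all genes in plate A (0.158 against 0.162) and plate B (0.06 against 0.18). Plcg2, the phospholipase below the receptor, had 214.3 and 134.1 CPM at 46 h and 293.8 and 354.2 at 60 h (0.93 ± 0.38, higher in 7 of 7 plates). Tnfrsf13c, the receptor of the survival factor BAFF, belonged to the list of apoptosis regulators. It had 355 and 198.6 CPM at 46 h and 542 and 435 at 60 h (0.86 ± 0.33, higher in 7 of 7 plates). Malt1, Plcg2 and Tnfrsf13c had both 60 h values above both 46 h values, with an adjusted p of 1 by edgeR.

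Transcription factors of germinal center B cells were higher in both experiments for 14 of 29 and lower for 4 (median 0.23, with 0.20 and 0.32, above 0 in 7 of 7 plates). Of all genes, 25.3% were higher in both and 21.3% lower in both. Spib, an ETS factor, had 491 and 386 CPM at 46 h and 583 and 675 at 60 h. Bcl6, the repressor that defines the germinal center state, had 383 and 166.6 CPM at 46 h and 431 and 175.7 at 60 h, a difference far smaller than that between the experiments. Receptors that position cells in the follicle were higher in both for 9 of 20 and lower for 3 (median 0.33, with 0.27 and 0.54). Their list was above 0 in 6 of 7 plates and stood at -0.22 in plate 6. Among its members Itgal, the alpha chain of the integrin LFA-1, had 27.6 and 14.1 CPM at 46 h and 72.2 and 75.7 at 60 h (1.77 ± 0.65, higher in 7 of 7 plates). S1pr2, which confines cells to the germinal center, had 618 and 386 CPM and then 804 and 613, so that its times overlapped.

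**Figure D3:**
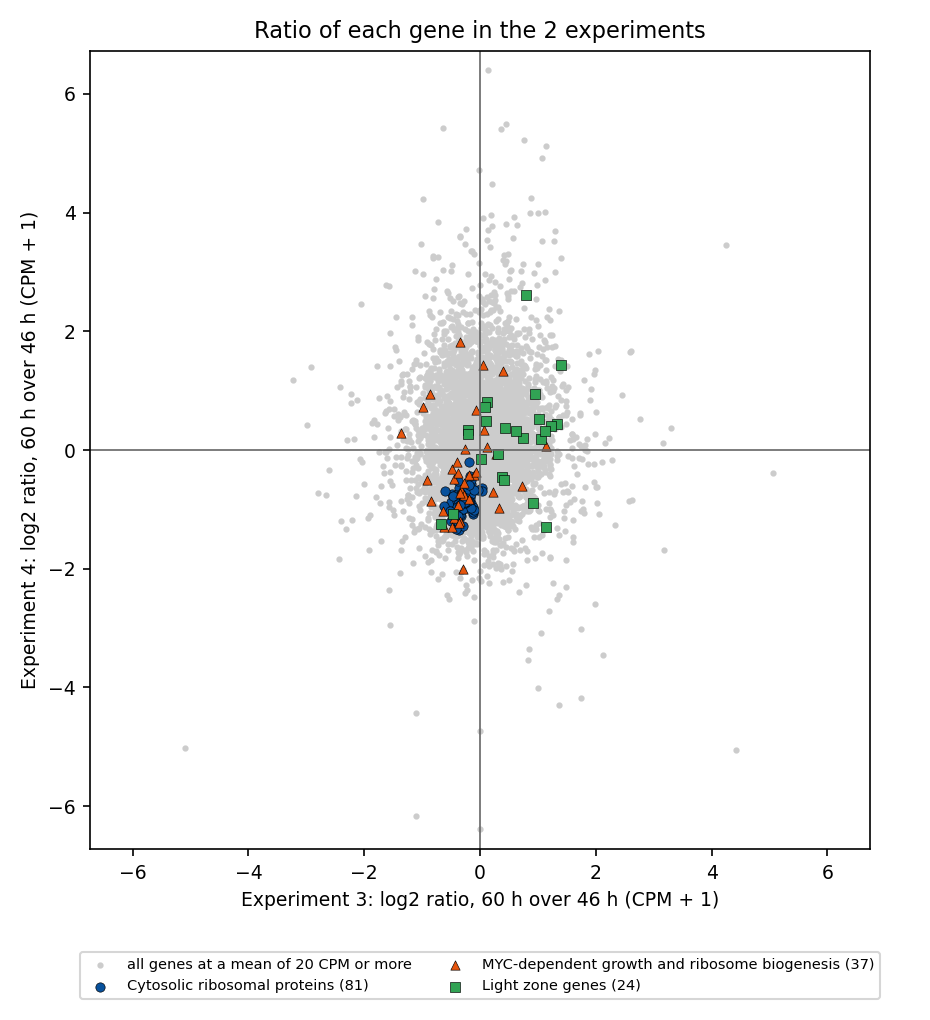
Log2 ratio of 60 h over 46 h (CPM + 1) of each gene at a mean of 20 CPM or more in experiment 3 (x axis) and experiment 4 (y axis), with 3 lists in color and their number of genes in brackets. The ribosomal proteins lie together below 0 on both axes, and the light zone genes lie mostly above 0 on both.

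The dark zone list itself had no single direction. Of its 18 genes 5 were higher in both experiments and 5 lower, near the shares of all genes, and the median was 0.01 (0.12 and -0.11). Cxcr4, the receptor that draws cells into the dark zone, had 12.7 and 75.7 CPM at 46 h and 5.75 and 46.5 at 60 h. Parp1, a sensor of DNA breaks, belonged to the list of AID, base excision and mismatch repair and not to the dark zone list. It had 335.8 and 264.99 CPM at 46 h and 500 and 509 at 60 h (0.74 ± 0.28). Foxo1, a factor needed for the dark zone state, had 100 and 51.7 CPM at 46 h and 94.6 and 78.5 at 60 h, and its ratio differed in sign between the experiments.

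Cell cycle genes had no shared direction, though the mitotic and D cyclin lists had more genes lower in both experiments than higher. Ccnd3 had 695 and 987 CPM at 46 h and 747 and 727 at 60 h. The 46 h levels lay on both sides of the 60 h levels, and the log2 ratio was -0.18 ± 0.33 (SE, edgeR, unadjusted p = 0.585, adjusted p = 1), with 0.11 in the fit without experiment 4. Ccnd2, the other D-type cyclin followed, was near 0 in these cells, at 0 and 0.133 CPM at 46 h and 0.259 and 3.604 at 60 h. In the list of D cyclins, G1 kinases, inhibitors and pocket proteins 6 of 27 were higher in both and 9 lower (median -0.04, and 0.07 without cells marked for both zones). G1/S replication genes had 13 of 50 higher and 11 lower (median -0.01), and mitotic genes had 19 of 70 higher and 26 lower (median -0.10). The shares lower in both were 33.3% for the D cyclin list, 22% for G1/S and 37.1% for mitotic genes, against 21.3% of all genes. Of genes at 20 CPM or more, 26.8% were lower in both. The shares higher in both were 22.2%, 26% and 27.1%, against 25.3% of all genes. Ccnb2, cyclin B2, had 324.6 and 494 CPM at 46 h and 248.3 and 224.2 at 60 h, the member of the mitotic list with an unadjusted p under 0.05 (0.0494, adjusted p = 1, edgeR). Mki67, the proliferation marker, had 437 and 275.2 CPM at 46 h and 426 and 335.6 at 60 h.

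The authors' phase calls gave a similar picture. In experiment 3, 27.4% of 73 cells were in G1 at 46 h (exact 95% interval 17.6 to 39.1%) and 26.1% of 69 at 60 h (16.3 to 38.1%). In experiment 4 the G1 share was 24.1% of 54 cells (13.5 to 37.6%) and 32.1% of 78 (21.9 to 43.6%). S phase held 31.5% and 37.7% of cells in experiment 3 and 37.04% and 37.2% in experiment 4, and G2M held 41.1% and 36.2%, and 38.9% and 30.8%. Plates with at least 5 cells at each time served as pairs in an exact two-sided permutation test that swapped the times within plates, for which 7 plates allow no p below 0.0156. Plates of 1 experiment are not separate replicates, so that these p-values measure the spread between plates. The mean difference of 60 h minus 46 h was 2.64 ± 11.3 percentage points for G1 (SD, n = 7 plates, exact permutation p = 0.562), 0.403 ± 18.5 for S (p = 0.953) and -3.04 ± 12.6 for G2M (p = 0.547, exact permutation test). Adjusted over the 11 measures per cell, these p-values were 0.707, 0.984 and 0.707. Differences of this size were smaller than the spread between plates. At 12 h the G1 share of dark zone cells was 60.5% in experiment 3 and 41.8% in experiment 4.

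**Figure D4:**
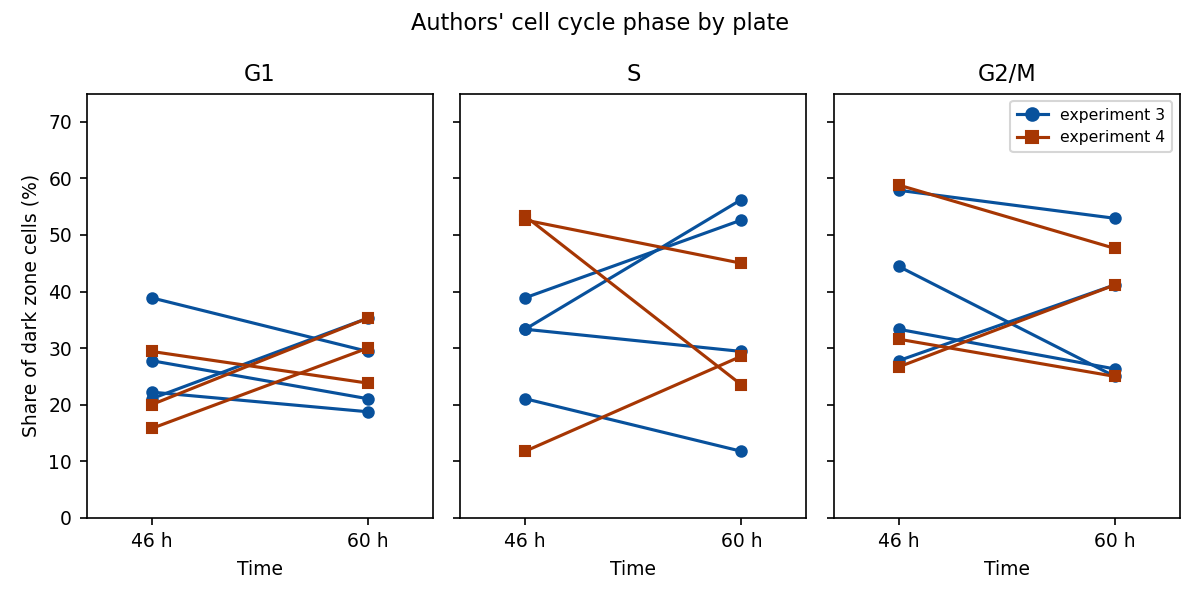
Share of dark zone cells in each cell cycle phase by the authors' calls at 46 h and 60 h; each line joins the 2 times of 1 plate with at least 5 cells at each time, in percent of its cells. The lines of both experiments run in both directions, and the mean differences (2.64, 0.403 and -3.04 percentage points) are smaller than their SD.

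The sort intensities showed 1 difference that lay within a single experiment. The median CD83 intensity was 227.5 at 46 h and 62 at 60 h (arbitrary units) in experiment 4, and in experiment 3 the 60 h median was 96.4% of that at 46 h. In experiment 4 all 3 plates with at least 5 cells at both times were lower. Over the 7 plates the mean log2 ratio was -0.78 ± 1.02 (SD, exact permutation p = 0.109, adjusted p = 0.688). The median CXCR4 intensity was 560 and 525 in experiment 3 and 722.5 and 596 in experiment 4 (-0.21 ± 0.40, exact permutation p = 0.25). The FUCCI reporter, a fluorescent marker of cell cycle position, had a 60 h median of 80.2% of that at 46 h in experiment 3 and of 124.2% in experiment 4 (-0.39 ± 1.77, exact permutation p = 0.578). Genes detected per cell were higher at 60 h in 5 of 7 plates (mean log2 ratio 0.22 ± 0.48, exact permutation p = 0.312).

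The single genes with the smallest p-values included several signaling genes. Sipa1, a GTPase-activating protein for the adhesion regulator RAP1, lies on chromosome 19 (mm10, 5651185 to 5663707, minus strand). It had 202.6 and 114.5 CPM at 46 h and 445 and 328.6 at 60 h, with both 60 h values above both 46 h values. Its log2 ratio was 1.32 ± 0.34 (SE; adjusted p = 1 by edgeR and 0.0259 by DESeq2), and 7 of 7 plates were higher. Reads of Sipa1 were present in 54 of 73 and 26 of 54 cells at 46 h and in 60 of 69 and 70 of 78 cells at 60 h. Lax1, an adaptor that restrains antigen receptor signals, had 112.6 and 98.6 CPM at 46 h and 270 and 198.3 at 60 h, and Swap70, a regulator of actin in B cells, had 314.2 and 295.3 CPM and then 440 and 695. Plek, a substrate of protein kinase C, had 79.3 and 60.98 CPM and then 110 and 276.8. Surf6, a nucleolar protein, had 40.3 and 20.3 CPM at 46 h and 94.5 and 95.5 at 60 h, so that it went against the direction of the growth list. Ankrd17 had 48.7 and 26.8 CPM and then 116.2 and 104.8, and Zfp655, a zinc finger gene, had 11.6 and 14.1 CPM and then 75.1 and 46.3. None of these genes overlapped between the times, and each was higher in 6 or 7 of 7 plates.

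Among the lower genes, Haus7, a subunit of the augmin complex of the mitotic spindle on chromosome X (73437315 to 73459044, minus strand), had 64.6 and 76.2 CPM at 46 h and 24.7 and 25.5 at 60 h. Its log2 ratio was -1.49 ± 0.52 (SE; adjusted p = 1 by edgeR and 0.0379 by DESeq2), with 7 of 7 plates lower. Derl3, which works in the degradation of misfolded proteins of the endoplasmic reticulum, had 34.2 and 46.5 CPM at 46 h and 10.9 and 8.23 at 60 h (adjusted p = 1 by edgeR and 0.0332 by DESeq2). Both genes were lower at 60 h with no overlap between the times.

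Immunoglobulin genes had large ratios. Those of Ighg1 and Ighd came mainly from the 46 h group of experiment 4, and that of Ighe rested on few cells. Ighg1, the constant gene of IgG1, had 3078 and 296.5 CPM at 46 h and 3503 and 4655 at 60 h (2.56 ± 0.81, unadjusted p = 0.00692, adjusted p = 1, edgeR). Without experiment 4 its log2 ratio was 0.20. Ighm had 192.3 and 3812 CPM at 46 h and 4.66 and 116.8 at 60 h. Its 60 h levels were lower in both experiments (-5.05 ± 1.50, adjusted p = 1 by edgeR), with log2 ratios of -5.09 and -5.02, and in 7 of 7 plates. Reads of it were present in 12 of 73 and 45 of 54 cells at 46 h and in 5 of 69 and 20 of 78 at 60 h. Ighd, the constant gene of IgD, had 269.4 CPM in the 46 h group of experiment 4 and 0 to 2.74 in the other 3. Ighe, the constant gene of IgE, had 2.92 and 7.04 CPM at 46 h and 73.5 and 86.8 at 60 h (4.02 ± 0.88; adjusted p = 1 by edgeR and 3.85e-06 by DESeq2). It had reads in 2 to 4 cells of each group, and 1 cell held 72.7% of its reads at 60 h in experiment 3 and 53.7% in experiment 4. The heavy-chain constant genes are similar in sequence, as are the ribosomal proteins and their processed copies, so that reads estimated for 1 of them may belong to another.

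**Figure D5:**
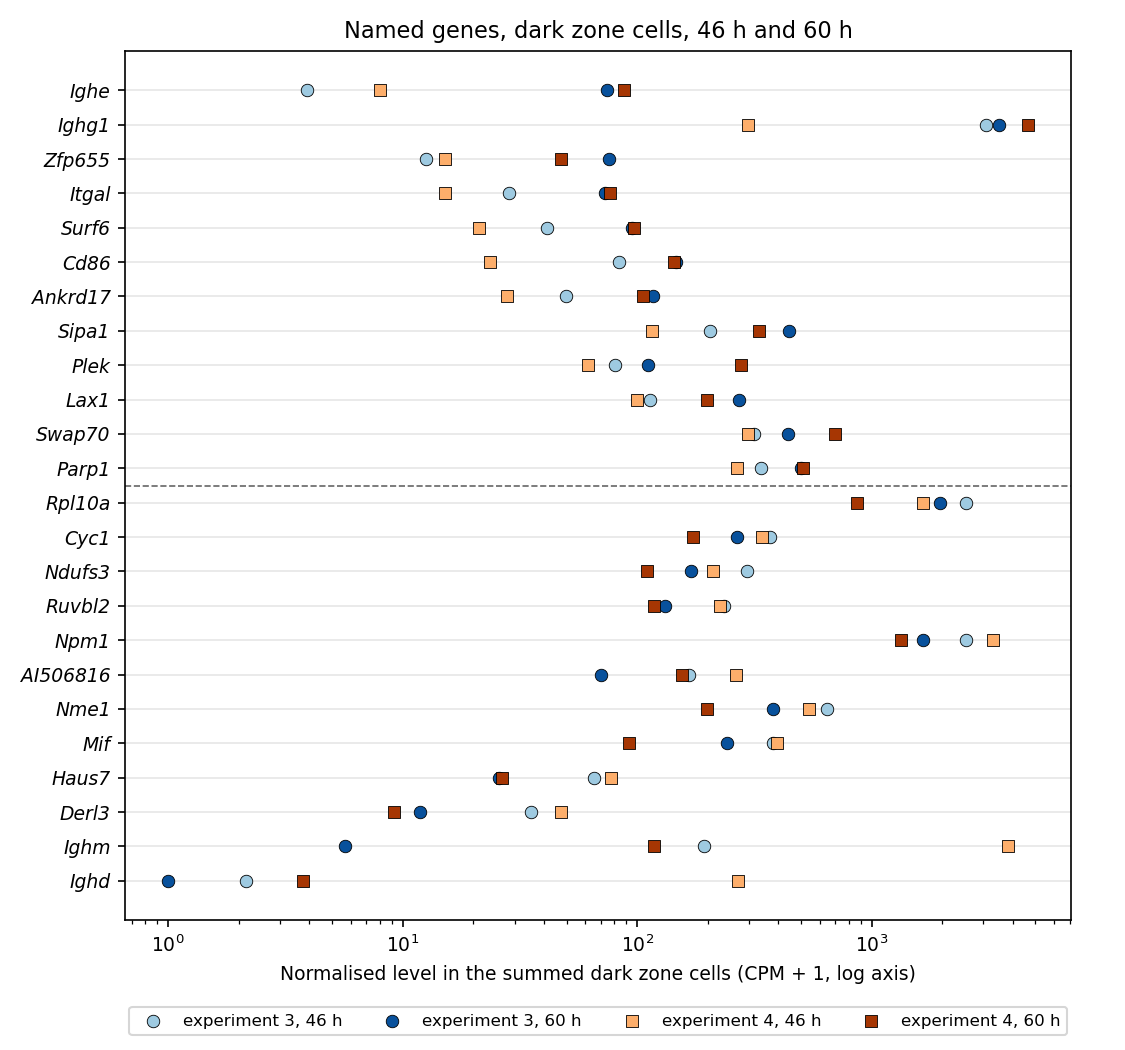
Level in the summed dark zone cells (CPM + 1, log axis) of the 12 genes with the smallest p-value above and the 12 below 0, one symbol per experiment and time; genes above the dashed line had a log2 ratio above 0. For Sipa1 and Cd86 both 60 h levels are higher than both 46 h levels. Ighg1 is set apart by its low level in the 46 h group of experiment 4 (296.5 CPM). Ighm has its highest level in that group (3812 CPM) and is lower at 60 h in both experiments.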

How the data were processed

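Expected counts per gene and cell came from the authors' deposited combined table. They were estimated by the authors and not normalized, and the tools and build in the submitters' processing notes are mm10, Seurat 3.1.4, STAR 2.6 and RSEM 1.3.1, of which none is given a role. The deposited cell table also held, from the authors, the count of genes detected per cell, the percent of mitochondrial reads, a score for S phase and for G2M, the phase calls, and sort intensity values in arbitrary units. Genes missing from the combined table held 5.02% (experiment 3) and 4.64% (experiment 4) of the reads of the deposited tables per plate. Experiment 2 was not used, since 255 columns of the combined table matched no single sample.

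Expected counts were summed over the cells of each experiment, zone and time (17 sums of at least 10 cells), rounded to whole numbers, limited to genes that pass filterByExpr, normalized with TMM factors and tested by the quasi-likelihood method of edgeR 4.0.16 (R 4.3.3), with zone and time as group and the experiment as block (11661 genes, 7 residual degrees of freedom). The experiment is the batch the labels name, and the deposited protocol placed all conditions of a replicate on each plate. DESeq2 1.42.0 was an alternative. Deviations of the 46 h and 60 h sums of 1 experiment from their group means correlated at r = 0.144 over genes, which are not independent replicates. Ratios per experiment, plate and phase were computed as log2 of CPM + 1, which understates the change of low genes. Measures per cell were compared over plates with scipy 1.17.1. The scripts were tested on simulated data. Cells ranged from 10662 to 520082 reads. Promoters were taken from RefSeq tables on GRCm38.p6.

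Named genes were, among those at a mean of 20 CPM or more with the same sign in both experiments, the 12 with the smallest p above and the 12 below 0. To these came up to 4 per list by smallest p, and 10 genes always named. Not all of them are printed, and some results are not reported here. The members and lists were chosen with earlier results of these data known.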

Additional observations from a re-analysis of the deposited data

Results flagged for a closer look

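Where an experiment and time had 4 plates of at least 5 cells, they were screened for a plate that lay far from the other 3. The 46 h cells of experiment 4 were not screened, since plate D held only 3 of them. In 33 groups of values 2 such plates were found, where chance gives about 1 in 20. The median S phase score of 60 h cells on plate 4 was -0.295, against 0.326 to 0.397 on the other plates of experiment 3. The median percent of mitochondrial reads of 46 h cells on plate 3 was 1.15%, against 1.43 to 1.48% on the others. The interferon response list moved in opposite directions in the experiments. Its median log2 ratio of 60 h over 46 h was above 0 on all 4 plates of experiment 3, from 0.039 to 1.82, and below 0 on the 3 plates of experiment 4 with enough cells, from -1.13 to -1.92. The difference between the experiments was not tested. Ifit3, an interferon-induced gene, had reads in 5 of 54 cells at 46 h in experiment 4 (83.04 CPM) and was at 0 in the other 3 groups.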

How the results depend on the processing

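By edgeR, 0 of 11661 genes had an adjusted p under 0.05, and this held under every alternative except DESeq2, which called 1.15% of them, and edgeR on the 4 dark zone sums alone, which called 0.0199% of 10057 genes (Ighm and Ighd). It was also 0 with either experiment left out, a fit in which each time has 1 dark zone sum that is assumed to vary like the other groups. An unadjusted p under 0.05 was found for 1.65% of genes. The share was 4.36% with DESeq2, 3.87% with the 4 sums alone, 7.15% of 8209 genes with sums per plate, 4.55% without cells of under 2000 genes detected (added after seeing the data), and 1.46 to 4.62% with an experiment left out, the higher value without experiment 3. With sums per plate, without cells of under 2000 genes, without cells of 5 or more T cell markers and without experiment 4 (73 higher, 93 lower), more of these genes were lower than higher, and without experiment 3 most were higher. With no replicate block, that is without pairing by experiment, the share was 0.789%, and that at an adjusted p under 0.05 was 0%. Of 62 named genes, 59 kept their direction in every alternative that fitted them. Leaving out an experiment gave -0.45 to 0.11 for Ccnd3, -0.075 to 0.59 for Foxo1 and -0.028 to 0.27 for Mki67. Foxo1 was -0.038 with sums per plate and Mki67 -0.041 without cells of under 2000 genes. The D cyclin list had a median of 0.066 without cells marked for both zones. Without experiment 4 the medians were -0.28 for ribosomal proteins, -0.33 for MYC-dependent growth and 0.51 for light zone genes.

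Without cells that hold 5 or more T cell markers, the mean differences over plates were -0.111 percentage points for G1, -0.364 for S and 0.475 for G2M, -0.0782 for the S score and 0.288 (log2) for FUCCI. With an experiment left out they ranged from -1.36 to 7.97 for G1 and from -6.88 to 5.86 for S. The ranges were -0.404 to 0.310 for the S score, -1.17 to 0.64 (log2) for FUCCI, -0.047 to 0.57 (log2) for genes detected and -1.68 to 0.118 for the percent of mitochondrial reads. None of these passed the test in any setting, and 3 or 4 plates cannot do so. The causes were not tested. The common biological coefficient of variation was 0.813, and that of single genes differs from it. In data simulated at a coefficient of 0.2, 27 of 50 genes changed 2-fold and 50 of 50 changed 4-fold were called. At a coefficient of 0.8, 0 of 50 genes changed 8-fold and 1 of 50 changed 16-fold were called. With 2 experiments, almost no gene with a spread near the common value could thus pass. Values between these 2 settings were not simulated. A count of 0 under the alternatives therefore says nothing about stability.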
